A study of Mus musculus with 22 samples.

Results

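Protein kinase A (PKA) is encoded in the mouse by separate genes for its catalytic and regulatory subunits, and its activity is further limited by a small family of inhibitor peptides. All 9 deposited entries with the gene names Prkaca, Prkacb, Prkar1a, Prkar1b, Prkar2a, Prkar2b, Pkia, Pkib and Pkig were taken by name, out of 54514 entries. Each of the 9 names had an entry.

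The study, titled as a GFP reporter system for variability of aquaporin-2 expression, measured RNA in 22 libraries of mpkCCD cells, a mouse kidney line of cortical collecting duct origin (the growth protocol names the subclone mpkCCDC11-38 for all groups). Cells were grown on permeable supports in a medium with dexamethasone. Expression was deposited as TPM, a length-scaled transcript abundance that sums to the same total in each library and keeps no sequencing depth. The first pair of groups was unsorted wild-type (WT) cells, with 3 libraries that received no dDAVP (controls) and 3 that received dDAVP, an agonist of the vasopressin V2 receptor. The other 8 groups came from GFP reporter cells named C1, C11, C43 and C50, here called reporter lines, all given dDAVP and each divided into GFP-negative and GFP-positive cells with 2 libraries per fraction. The labels list dDAVP at 0.1 or 1 nM for 24 or 48 h without assigning a dose or time to a library. They name neither the promoter that drives GFP nor whether each reporter line is a single clone.

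In its resting form PKA is a complex of regulatory and catalytic subunits, and cAMP bound to the regulatory subunits frees catalytic activity. Type I regulatory subunits (Prkar1a, Prkar1b) are largely cytosolic, whereas type II subunits (Prkar2a, Prkar2b) are held at membranes and organelles by A-kinase anchoring proteins. The PKI peptides (Pkia, Pkib, Pkig) block free catalytic subunits as pseudosubstrates and carry them out of the nucleus. In collecting duct principal cells, vasopressin raises cAMP through the V2 receptor, and PKA is known for phosphorylating aquaporin-2 and promoting its insertion into the apical membrane.

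Because cAMP-responsive promoters can carry the cAMP response element, the RefSeq promoter windows of the members (GRCm38.p6, 250 bases before to 50 bases after an annotated start) were searched for TGACGTCA, which is its own reverse complement, and for the shorter form TGACG on both strands (CGTCA on the other). Each full element also contains the short form on both strands. Windows were found for 8 of the 9 members, 24 in all, but not for Pkia. The 3 windows printed here, chosen after values were seen, belong to Prkar1a, which alone holds the full element, to Prkacb, which was called with dDAVP, and to Pkig, which was called between GFP fractions. Every match is in capitals.
Prkar1a: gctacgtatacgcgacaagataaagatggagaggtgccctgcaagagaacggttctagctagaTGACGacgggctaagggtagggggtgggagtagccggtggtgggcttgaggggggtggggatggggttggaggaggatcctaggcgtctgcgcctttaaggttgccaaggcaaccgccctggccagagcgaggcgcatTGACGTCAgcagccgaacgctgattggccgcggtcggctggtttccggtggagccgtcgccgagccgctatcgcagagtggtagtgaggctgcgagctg
Prkacb: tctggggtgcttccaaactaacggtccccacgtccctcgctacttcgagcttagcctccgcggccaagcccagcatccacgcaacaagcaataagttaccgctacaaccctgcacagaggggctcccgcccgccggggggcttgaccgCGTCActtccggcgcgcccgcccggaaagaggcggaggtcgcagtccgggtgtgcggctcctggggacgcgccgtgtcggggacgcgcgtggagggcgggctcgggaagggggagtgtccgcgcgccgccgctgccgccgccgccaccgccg
Pkig: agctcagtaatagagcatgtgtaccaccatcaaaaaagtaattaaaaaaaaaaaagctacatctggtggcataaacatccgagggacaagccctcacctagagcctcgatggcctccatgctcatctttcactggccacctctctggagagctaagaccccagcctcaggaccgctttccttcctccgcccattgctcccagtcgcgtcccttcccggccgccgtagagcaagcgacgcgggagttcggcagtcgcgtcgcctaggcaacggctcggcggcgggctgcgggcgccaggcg
The Prkar1a window lies at chr11:109650699-109650998 on the plus strand, and its full element begins 49 bases before the start. The Prkacb window lies at chr3:146812897-146813196 on the minus strand and holds a short form that begins 102 bases before the start. The Pkig window at chr2:163658136-163658435, plus strand, holds no match, although another of the 3 Pkig windows holds the short form. Over all windows, TGACGTCA was present in 588 of 32851 (1.79%) and in 2 of the 24 member windows, both of them overlapping windows of Prkar1a. The short form was present in 20.8% of all windows and in 8 of the 24 member windows, which belong to 6 members. A match is only a description of these letters.

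The libraries had 12293 to 14341 genes at a TPM of 1 or more, and mitochondrial transcripts made up 1.07% to 1.91% of TPM. By genes above 0 TPM they fell into 10 with fewer genes detected (17177 to 20250) and 12 with more (23135 to 31292). Both C1 GFP-negative libraries were in the set with fewer and both C11 GFP-negative ones in the set with more. Every other group had libraries in both sets. Aqp2, the aquaporin-2 gene, averaged 69.1 ± 5.43 TPM in WT controls and 2868 ± 139 with dDAVP (SD, n = 3), and mean GFP TPM was 0.38 in WT controls, 8.1 to 16.4 in GFP-negative groups and 1114 to 1496 in GFP-positive groups. Mean Aqp2 TPM in GFP-negative cells was 69.5 in C1 and 249 in C11 but 1624 in C43 and 1243 in C50. The GFP-positive means of these lines were 2017, 3002, 6952 and 4651, so GFP-negative cells were not low in Aqp2 in every line. Of 15 collecting duct and principal cell markers, 13 averaged at least 1 TPM, while Elf5 and Scnn1b stayed under 1 TPM in every library. Markers of the thick ascending limb, fibroblasts and endothelium summed to at most 1.33 TPM, and the intercalated cell markers Foxi1, Slc4a1 and Atp6v1g3 did not exceed 0.48 TPM. Among 6 intercalated cell markers, the sum was 8.17 to 9.36 TPM in C50 GFP-positive libraries against 2.11 to 3.27 in C50 GFP-negative ones, nearly all of it Slc4a9, and its part in any result was not tested. Among 4 proximal tubule markers the sum was 0.94 to 16.1 TPM, nearly all of it Lrp2, with 10.3 to 15.2 in WT controls against 5.17 to 8.50 with dDAVP, while Slc34a1, Slc5a2 and Slc22a6 did not exceed 0.51 TPM. It was higher in GFP-positive libraries without overlap in C1 (0.94 to 1.94 against 3.91 to 3.99), C43 (4.27 to 6.04 against 6.14 to 6.26) and C50 (5.26 to 7.42 against 8.23 to 12.8), and overlapped in C11 (9.94 to 13.12 against 12.98 to 16.12). The leukocyte markers Ptprc and Cd68 summed to 3.15 to 12.95 TPM, mostly Cd68, with 8.24 to 12.95 in C1 GFP-negative against 5.10 to 5.92 in C1 GFP-positive libraries, and overlapped between fractions in the other lines. The part of either sum in any result was not tested. One library stood apart: in C50 GFP-negative replicate 1, ribosomal protein transcripts made up 8.32% of TPM (3.85% to 6.12% elsewhere), and log2 levels fell by 0.285 per doubling of transcript length relative to the average library (slopes of -0.071 to 0.143 elsewhere). Changes, calls and correlations of members that turn on it are given with and without it. In bulk RNA, fewer cells of a type and less RNA per cell cannot be told apart, and since the labels do not say that replicates were separate cultures, p-values measure only the spread between these libraries.

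The PKA transcripts of these cells were led by the regulatory subunit Prkar1a, the inhibitor Pkig and the catalytic subunit Prkaca. Averaged over 22 libraries, TPM was 229 for Prkar1a, 99.8 for Pkig, 75.7 for Prkaca, 65.7 for Prkar2b, 29.1 for Prkacb, 18.8 for Prkar2a, 5.50 for Pkia, 1.04 for Prkar1b and 0.25 for Pkib. Both Prkar1b, the type I subunit best known from brain, and Pkib were thus at the lower edge of the measured range. Pkib was listed at 0 in 9 of 22 libraries and reached at most 0.82 TPM. Prkar1b ranged from 0.03 to 4.05 TPM and was at 1 TPM or more in 8 of 22 libraries.

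**Figure D1:**
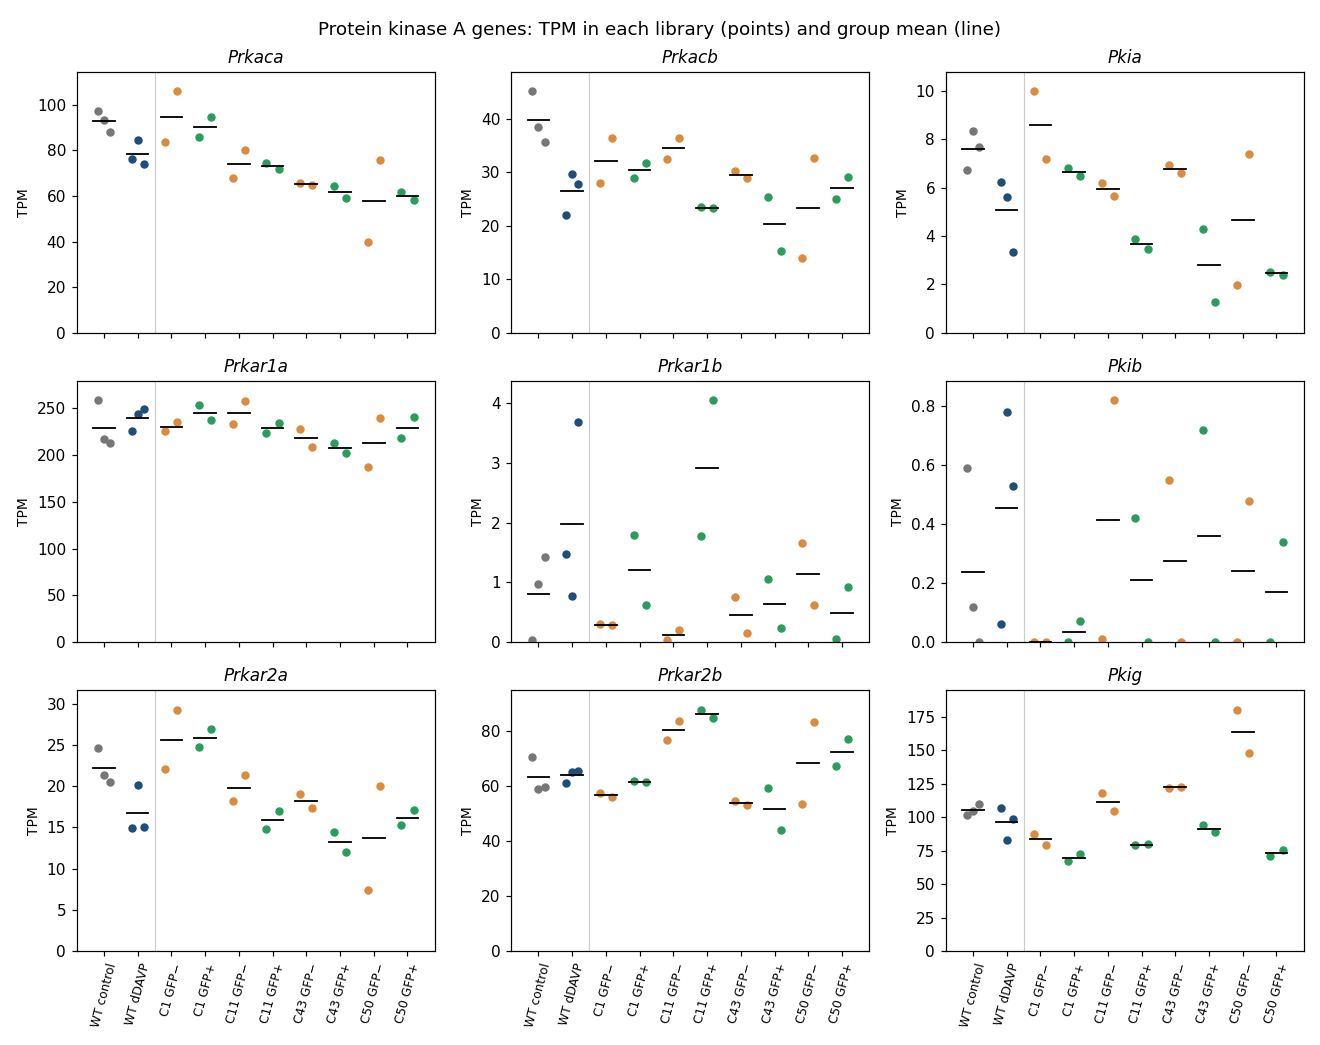
TPM (vertical axes, linear, from 0, scaled separately) of the 9 protein kinase A genes in each of 22 libraries (points), in 10 groups along the horizontal axis, with group means as lines. Prkar1a lies between 187 and 258 TPM throughout, Pkig is lower in every GFP-positive group than in its GFP-negative partner, and C50 GFP-negative replicate 1 lies apart from replicate 2 in most panels.

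Prkaca encodes the widely expressed catalytic subunit Cα. Its group means ran from 57.7 ± 25.6 TPM (SD, n = 2) in C50 GFP-negative cells to 94.8 ± 15.7 (SD, n = 2) in C1 GFP-negative cells, and 6 of 9 neighbouring pairs in that order overlapped. Without replicate 1 the C50 GFP-negative group is a single library at 75.8 TPM, and the lowest mean is then that of C50 GFP-positive cells (59.8 ± 2.48 TPM; SD, n = 2). Prkacb, the gene of the catalytic subunit Cβ, had means between 20.3 ± 7.07 TPM in C43 GFP-positive cells (SD, n = 2) and 39.7 ± 4.90 in WT controls (SD, n = 3), with overlap in all 9 neighbouring pairs. Across every library Prkaca supplied 66.6% to 79.5% of the catalytic TPM.

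Prkar1a was the steadiest member: its group means spanned 0.24 on the log2 scale. They lay between 207 ± 8.05 TPM in C43 GFP-positive cells (SD, n = 2) and 245 ± 11.9 in C1 GFP-positive cells (SD, n = 2), and all 9 neighbouring pairs overlapped. Type I subunits made up 68.7% to 78.3% of regulatory TPM. Prkar2b, the more abundant type II subunit, had its lowest mean in C43 GFP-positive cells (51.7 ± 10.8 TPM; SD, n = 2) and its highest in C11 GFP-positive cells (86.4 ± 2.07; SD, n = 2). Prkar2a ran from 13.2 ± 1.75 TPM in C43 GFP-positive cells to 25.8 ± 1.53 in C1 GFP-positive cells (SD, n = 2 each), and each of its 9 neighbouring pairs overlapped.

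The inhibitors Pkia and Pkig had the widest spans of group means among members with at least 5 TPM on average, at 1.46 and 1.21 on the log2 scale. Pkia was lowest in C50 GFP-positive cells (2.46 ± 0.0636 TPM; SD, n = 2) and highest in C1 GFP-negative cells (8.59 ± 1.97; SD, n = 2). For Pkig the lowest mean was in C1 GFP-positive cells (70.0 ± 3.50 TPM; SD, n = 2) and the highest in C50 GFP-negative cells (164 ± 23.1; SD, n = 2), with overlap in 5 of 9 neighbouring pairs.

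The WT comparison asks how PKA transcripts differ after dDAVP in unsorted cells. Prkacb fell with dDAVP, to 0.667 times its control mean, and was the only member called. Prkacb TPM was 45.1, 38.4 and 35.6 in the controls and 22.1, 29.7 and 27.7 with dDAVP. All 3 treated libraries lay below all 3 controls. The change was -0.57 on the log2(TPM + 1) scale (SE 0.14; limma, Benjamini-Hochberg adjusted p = 0.0473, n = 3 per group), a scale on which low TPM values are compressed, so that their changes come out too small. Over all genes tested, 8.88% were called (6.51% as lower), so 1 call among the 8 members tested is near the background.

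That call was close to the threshold and was lost in 13 of 19 alternative analyses, with the change between -0.67 and -0.30 and adjusted p from 0.00869 to 0.174. The libraries with fewer genes detected, 1 per WT group, gave a change but allowed no test, so 18 of these alternatives had one. The median gene changed by -0.16, and under median-ratio scaling, which removes this shift, Prkacb changed by -0.40 (limma adjusted p = 0.0554) and the share of higher genes among all calls went from 26.7% to 59.6%. Prkacb transcripts are long (median 4000 bases, percentile 85.3), and the slope of log2 level on transcript length was 0.143, 0.062 and 0.038 in the controls against -0.069, 0.057 and -0.026 with dDAVP. After a correction for that slope Prkacb changed by -0.30 (limma adjusted p = 0.0718), and Prkar1a was the 1 member called, at 0.31 (0.0343). Of the omissions of 1 library, only that of dDAVP replicate 2 kept the Prkacb call (adjusted p = 0.0346), with 3 members then called, Prkaca (-0.30; 0.0494) and Prkar2a (-0.53; 0.0332) being the others, while calls over all genes went from 1198 to 2038. Leaving out any control library, dDAVP replicate 1 or dDAVP replicate 3 gave limma adjusted p of 0.0846 to 0.131 for Prkacb.

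Among the other members, Prkaca TPM was 97.1, 93.1 and 87.9 in controls and 76.2, 84.6 and 73.8 with dDAVP, which did not overlap. Its change of -0.24 (SE 0.08) did not pass the test (limma adjusted p = 0.10). Prkar2a TPM was 24.7, 21.4 and 20.5 in controls and 14.9, 20.2 and 15.1 with dDAVP, again without overlap (-0.40; limma adjusted p = 0.11). The inhibitor Pkia had 6.74, 8.35 and 7.68 TPM in controls and 6.22, 5.63 and 3.35 with dDAVP. These groups did not overlap either, but the change of -0.53 had an adjusted p of 0.142 by limma. Thus 4 members lay lower without overlap in treated cells, where 28.7% of all genes did (35.8% in either direction).

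Prkar1a had 258, 217 and 212 TPM in controls and 226, 244 and 249 with dDAVP, and the groups overlapped (0.07; limma adjusted p = 0.631). For Prkar2b the values were 70.8, 59.2 and 59.9 against 61.1, 65.3 and 65.6 (0.02; limma adjusted p = 0.898). Pkig, with 102, 105 and 109.8 against 107, 83.1 and 99.1 TPM, overlapped as well. Its change was -0.14 (limma adjusted p = 0.397) and was 0.04 under median-ratio scaling. Prkar1b (0.69; SE 0.47; limma adjusted p = 0.354) was tested at a mean near 1 TPM, and Pkib was too low to be tested.

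**Figure D2:**
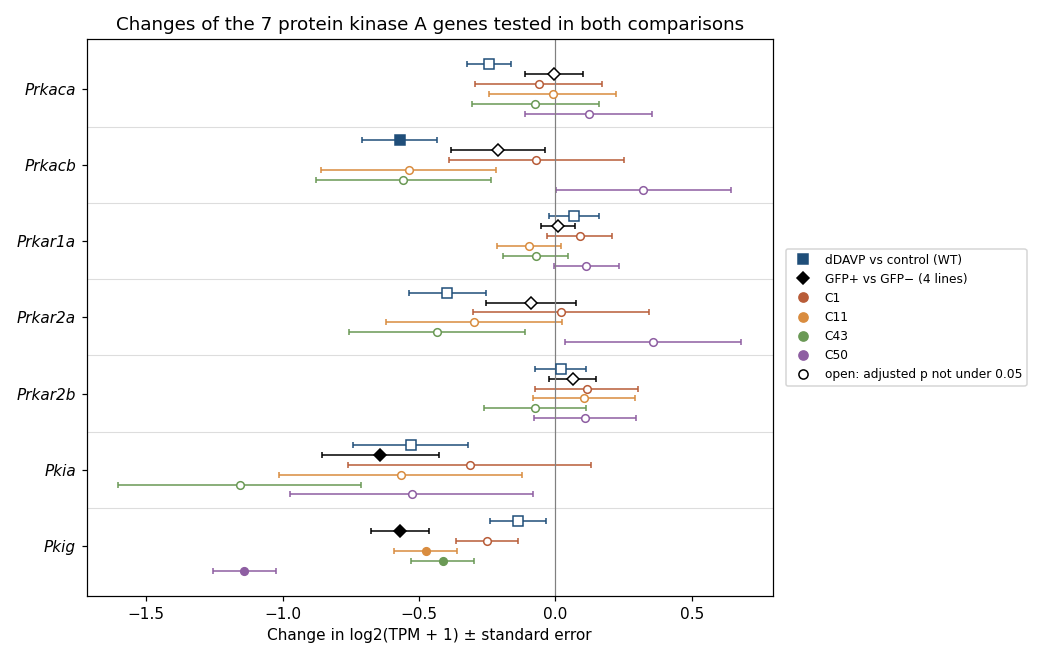
Change in log2(TPM + 1) with its standard error (horizontal axis) for the 7 members tested in both the dDAVP and the GFP comparisons, for dDAVP in WT cells, GFP-positive against GFP-negative over 4 reporter lines, and each line alone. Filled symbols have a limma adjusted p under 0.05: Prkacb for dDAVP at -0.57, Pkia and Pkig over the 4 lines at -0.64 and -0.57, and Pkig in C11, C43 and C50.

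The comparison of GFP fractions asks how PKA transcripts differ between cells of low and high reporter signal when both received dDAVP. Both measurable inhibitors, Pkig and Pkia, were lower in GFP-positive cells, whereas none of the 5 subunit genes tested passed the threshold. That contrast was not itself tested and depends on C50 GFP-negative replicate 1. Without that library the Prkacb and Prkar2a changes were -0.37 and -0.25, as given below. The Pkia call was lost in 13 of 34 alternatives. Pkig changed by -0.57 (SE 0.11; limma adjusted p = 0.000694, 16 libraries with line as covariate) and Pkia by -0.64 (SE 0.22; limma adjusted p = 0.0309). These 2 calls among 7 members tested (28.6%) stand against 35.3% of all genes called, 23.2% as lower, so the count itself is near the background.

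Pkig encodes PKIγ, a widely expressed inhibitor isoform. In C1, its TPM was 87.7 and 79.4 in GFP-negative cells and 67.5 and 72.5 in GFP-positive cells. In C11 the corresponding values were 118 and 104 against 79.1 and 80.0. In C43 they were 122 and 123 against 94.0 and 89.1, and in C50 180.3 and 148 against 71.4 and 75.5. Both GFP-positive libraries lay below both GFP-negative ones in 4 of 4 lines, a pattern found in 12.2% of all genes tested. The GFP-positive means were 0.838, 0.716, 0.749 and 0.448 times the GFP-negative means in C1, C11, C43 and C50.

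Tested line by line with a spread shared over all groups, the Pkig change was -0.25 in C1 (limma adjusted p = 0.26), -0.47 in C11 (0.0286), -0.41 in C43 (0.032) and -1.14 in C50 (5.37e-05). The shares of all genes called in those lines were 7.22%, 7.94%, 16.3% and 26.6%. The C50 value without GFP-negative replicate 1 was -0.998 (limma adjusted p = 9.02e-05), while the C11 and C43 calls were lost in 9 and 12 of 27 alternatives, such as median-ratio scaling (-0.32 and -0.23; adjusted p = 0.409 and 0.488), quantile normalization (0.0839 and 0.15) and the omission of any 1 library of that line, which assumes that the lone library left varies like the other groups. The C43 call was also lost without either C11 GFP-positive library (adjusted p = 0.0526 and 0.0523). In a test of whether the fraction difference varied with the line, Pkig had F = 11.6 with a limma adjusted p of 0.0763. No member passed that test, in which 0.869% of all genes were called and 1 of 7 members (Pkig) had an unadjusted p under 0.05. The larger Pkig difference in C50 is therefore not shown to differ from the other lines at this threshold, although the correction for transcript length gave an adjusted p of 0.0418 and a fit of all 22 libraries 0.0284. Without C50 GFP-negative replicate 2, 4 members passed (Pkig at 0.00188, Prkar2a at 0.00545, Prkacb at 0.0134 and Prkaca at 0.0497, all by limma), beside 38.6% of all genes. That omission leaves that fraction of C50 with the library that stood apart.

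Over 34 alternative analyses of the 4 lines, the Pkig call was lost in 1, the subset of libraries with fewer detected genes (-0.66; limma adjusted p = 0.168). Its change ranged from -0.68 to -0.38, the latter without line C50. The subset with fewer detected genes held no C11 GFP-negative library, and from the C50 GFP-negative libraries it held replicate 1 but not replicate 2.

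Pkia encodes PKIα, the founding isoform, best known from muscle and brain. Its TPM in C1 was 9.98 and 7.20 in GFP-negative cells and 6.81 and 6.46 in GFP-positive cells. C11 gave 6.19 and 5.66 against 3.88 and 3.47. C43 gave 6.92 and 6.61 against 4.31 and 1.28. Thus the fractions did not overlap in these 3 lines, as in 54.8%, 61% and 60.4% of all genes in C1, C11 and C43. In C50, GFP-negative cells had 1.96 and 7.37 TPM and GFP-positive cells 2.50 and 2.41, so the fractions overlapped through GFP-negative replicate 1. With all 16 libraries no single line passed the test for Pkia, with changes of -0.31, -0.57, -1.16 and -0.53 in C1, C11, C43 and C50 (limma adjusted p = 0.811, 0.546, 0.106 and 0.409). With 1 library left out, Pkia changed by -1.77 to -0.55 in C43 (-0.55 without GFP-positive replicate 2) and by -0.525 to -0.103 in C1. Without C50 GFP-negative replicate 1 it was called in C50 (-1.28; limma adjusted p = 0.0369) and in C43 (-1.16; 0.0198), where calls over all genes went from 2134 to 3891. The C43 call was also gained without C50 GFP-negative replicate 2 (limma adjusted p = 0.0192) and without C43 GFP-positive replicate 1 (-1.77; 0.0332), and the C50 change was 0.22 without C50 GFP-negative replicate 2 (limma adjusted p = 0.664). The pooled call was lost in 13 of 34 alternatives, among them each set without line C1, C11 or C43 (adjusted p = 0.0602, 0.106 and 0.136) and the single omission of C1 GFP-negative replicate 1, C11 GFP-negative replicate 1, C11 GFP-positive replicate 2, either C43 GFP-negative library, C43 GFP-positive replicate 2 or C50 GFP-negative replicate 2 (0.0504 to 0.0649). The remaining losses came with the correction for transcript length (-0.52; limma adjusted p = 0.0631), with all genes of any TPM above 0 (0.093) and with the libraries that had fewer genes detected (0.472), where Pkig lost its call too (-0.66; 0.168). Pkia and Pkig transcripts are short (medians of 631 and 701 bases, percentiles 7.25 and 10.2), and the pooled Pkig change after the length correction was -0.44 (limma adjusted p = 0.00189). Without C50 GFP-negative replicate 1 the pooled Pkia change was -0.79 (limma adjusted p = 0.00261).

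**Figure D3:**
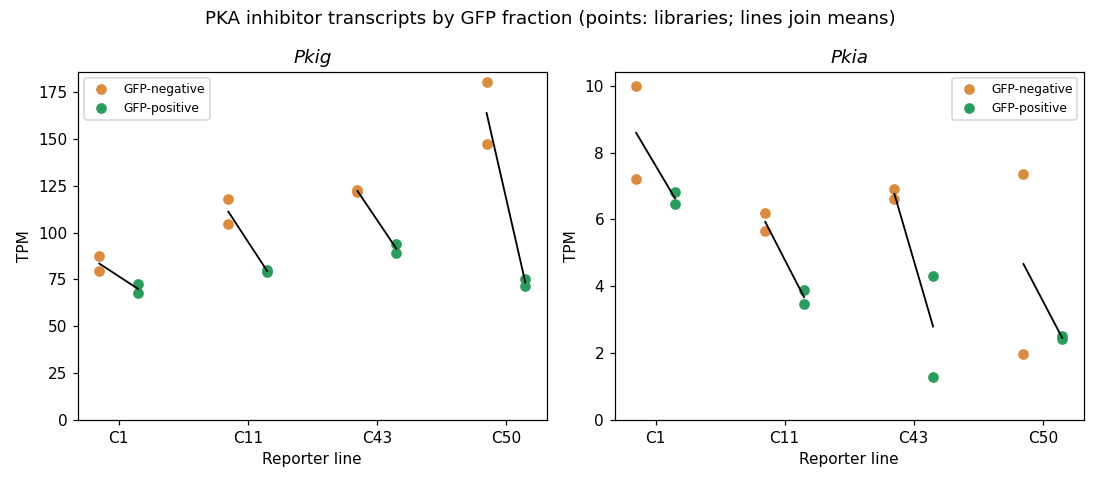
TPM (vertical axes, linear, from 0) of Pkig and Pkia in GFP-negative and GFP-positive libraries (points) of the 4 reporter lines (horizontal axis), with lines joining the fraction means. Every Pkig pair of points for GFP-positive cells is under the GFP-negative pair of its line, and for Pkia this holds in C1, C11 and C43 but not in C50.

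Catalytic subunit TPM overlapped between the fractions taken over all lines. Prkaca ranged from 39.6 to 106 TPM in 8 GFP-negative libraries (median 71.8) and from 58.1 to 94.5 in 8 GFP-positive ones (median 68.2), with a change of -0.01 (limma adjusted p = 0.975). In C43 both GFP-positive libraries were lower, at 64.4 and 59.2 against 65.5 and 64.6 TPM. Prkacb ranged from 13.9 to 36.4 TPM in GFP-negative libraries (median 31.4) and from 15.3 to 31.7 in GFP-positive ones (median 25.2). Its change of -0.21 did not pass the test (limma adjusted p = 0.382), although in C11 and C43 both GFP-positive libraries were lower: 23.4 and 23.4 against 32.5 and 36.4 TPM in C11, and 25.3 and 15.3 against 30.2 and 28.9 TPM in C43. Fractions without overlap were common over all genes in both lines, as given for Pkia.

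Among the regulatory subunits, Prkar1a had medians of 230.3 and 229 TPM in GFP-negative and GFP-positive libraries (0.01; limma adjusted p = 0.932). Prkar2a had medians of 19.5 and 16.1 TPM (-0.09; limma adjusted p = 0.729), and Prkar2b 56.9 and 64.6 TPM (0.06; limma adjusted p = 0.629). For each of these subunits the ranges over all 4 lines overlapped. Within lines, Prkar2a was lower in GFP-positive cells without overlap in C11 and C43, Prkar2b was higher without overlap in C1 and C11, and Prkar1a in C1, where the shares of all genes without overlap were the 54.8% (C1), 61% (C11) and 60.4% (C43) given above. Prkar1b, not tested here because its mean was under 1 TPM, had medians of 0.295 and 0.995 TPM, and its GFP-positive libraries were higher without overlap in C1 and C11. Pkib was at 0 in 4 of 8 libraries of either fraction.

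C50 GFP-negative replicate 1 decided several of these values. It held the lowest TPM of all 22 libraries for Prkaca (39.6), Prkacb (13.9), Prkar1a (187) and Prkar2a (7.48), and the highest for Pkig (180.3). Within C50 the change of Prkacb was 0.32 with this library and -0.27 without it, and that of Prkar2a 0.36 and -0.30. The changes of Prkaca (0.12 and -0.34), Prkar1a (0.11 and -0.06) and Prkar2b (0.11 and -0.20) turned sign in the same way, none of them called. Without it, 4 members were called lower over the 4 lines, namely Prkacb (-0.37; limma adjusted p = 0.0129), Prkar2a (-0.25; 0.0328), Pkia and Pkig (-0.49; 0.000207), and 46% of all genes were called. After the correction for transcript length, with all libraries, the C50 changes were -0.05 for Prkacb, 0.53 for Prkar2a, -0.35 for Pkia and -0.96 for Pkig (limma adjusted p = 0.856, 0.212, 0.586 and 4.92e-05). The part of its ribosomal protein share was not tested. Leaving out GFP-negative replicate 2 instead gave C50 changes of 0.58 for Prkaca, 0.91 for Prkacb, 0.29 for Prkar1a, 1.015 for Prkar2a and 0.42 for Prkar2b. That fit leaves the GFP-negative fraction of C50 with the library that stood apart. Under median-ratio scaling the share of higher genes among all calls between fractions went from 34.2% to 50.9%, and Pkig changed by -0.49 (limma adjusted p = 0.0148) and Pkia by -0.57 (0.03).

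Of 7 members tested, Prkar2b and Prkaca differed between the reporter lines, with both GFP fractions pooled. Prkar2b was highest in C11 (80.4 ± 4.91 and 86.4 ± 2.07 TPM in GFP-negative and GFP-positive cells; SD, n = 2 each) and lowest in C43 (53.9 ± 1.23 and 51.7 ± 10.8; SD, n = 2 each), with F = 10.5 and a limma adjusted p of 0.00507. Prkaca was highest in C1 (94.8 ± 15.7 and 90.2 ± 6.01 TPM; SD, n = 2 each), with F = 7.54 and a limma adjusted p of 0.0156. Over both fractions it averaged 63.5 ± 2.86 TPM in C43 and 58.8 ± 14.9 in C50 (SD, n = 4 each), and 65.2 ± 9.39 in C50 without GFP-negative replicate 1 (SD, n = 3), so which of these lines was lowest depends on that library. These 2 of 7 members (28.6%) compare with 28% of all genes, again near the background. Pkig (limma adjusted p = 0.0535), Prkar2a (0.0592) and Pkia (0.0839) missed the threshold, and Prkar1a (0.355) and Prkacb (0.534) lay further from it. The Prkar2b call was kept in 26 of 26 alternatives and the Prkaca call in 25, the exception being the omission of C1 GFP-negative replicate 2 (limma adjusted p = 0.0563). Pkig and Prkar2a each passed in 7 alternatives and Pkia in 6, which include the omission of C50 GFP-negative replicate 1 for Pkig (0.0168) and Prkar2a (0.00193).

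The balance of PKA transcripts is described here by sums of TPM, with no test. Regulatory TPM per catalytic TPM was 2.38 ± 0.11 in WT controls and 3.09 ± 0.20 with dDAVP (SD, n = 3 each), and the groups, at 2.27 to 2.49 and 2.89 to 3.29, did not overlap. The catalytic sum was 132 ± 9.41 and 105 ± 8.44 TPM in these groups, while the regulatory sum was 315 ± 33.2 and 322 ± 16.6 TPM (SD, n = 3 each). After median-ratio scaling the catalytic means were 115 and 103 and the regulatory means 273 and 316, so which sum differed more depends on the scaling, which leaves the ratio as it is. The PKI sum per catalytic TPM was 0.86 ± 0.09 in controls and 0.98 ± 0.19 with dDAVP (SD, n = 3 each), which overlapped.

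In the reporter lines, regulatory TPM per catalytic TPM had means of 2.496, 3.196, 3.07 and 3.915 in the GFP-negative cells of C1, C11, C43 and C50. In GFP-positive cells these were 2.778, 3.464, 3.333 and 3.659. GFP-positive libraries were higher without overlap in C11 and C43, while the fractions overlapped in C1 and C50. PKI TPM per catalytic TPM had means of 0.742, 1.10, 1.37 and 2.42 in the GFP-negative cells of C1, C11, C43 and C50. The GFP-positive means were 0.636, 0.865, 1.16 and 0.875. Each positive mean was below its negative partner, but in C1 the single libraries overlapped, at 0.609 and 0.874 against 0.626 and 0.646. The high C50 value comes from libraries at 1.43 and 3.40, the latter being GFP-negative replicate 1. Prkaca made up a larger part of catalytic TPM in GFP-positive than in GFP-negative cells of C11 (75.8% ± 0.40 against 68.1% ± 0.81) and C43 (75.6% ± 5.43 against 68.8% ± 0.47), but not in C1 (74.8% ± 0.05 and 74.7% ± 0.32) or C50 (68.9% ± 3.18 and 71.9% ± 2.92; SD, n = 2 each).

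**Figure D4:**
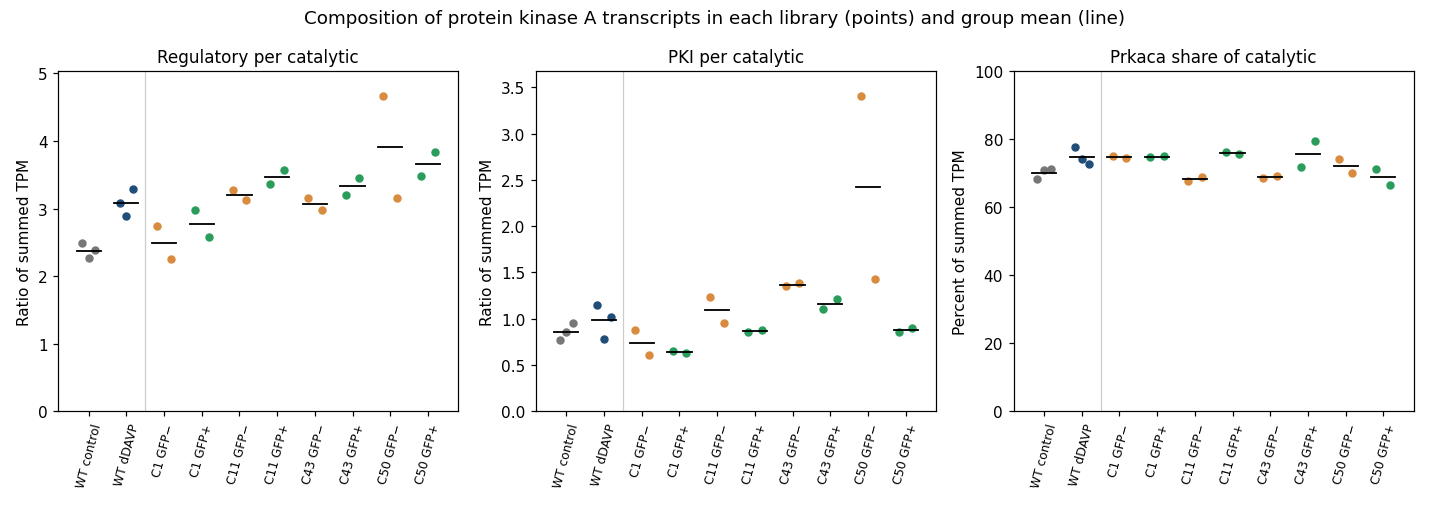
Ratios of summed TPM (left, regulatory per catalytic; middle, PKI per catalytic) and Prkaca as a percent of catalytic TPM (right) in each library (points) of the 10 groups, with group means as lines and axes from 0. The regulatory-per-catalytic ratio of the 3 dDAVP libraries of WT cells lies at 2.89 to 3.29 against 2.27 to 2.49 in controls, and C50 GFP-negative replicate 1 has the highest value of both ratios.

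Some members varied together from library to library, and others did not. Over 22 libraries, which share groups and scaling, Prkaca and Prkar2a had a Pearson r of 0.90 on the log2 scale (0.83 without C50 GFP-negative replicate 1), and Prkacb and Prkar2a 0.86 (0.78). Pkia had r = 0.76 with Prkar2a (0.72) and 0.74 with Prkacb (0.69). Pkig had r = -0.42 with Prkaca, which was -0.10 without that library, and r = 0.08 with Pkia, which was 0.38 without it. Its r with the 5 subunit genes was -0.43 to -0.14, and -0.14 to 0.27 without that library. Prkar2b had r = 0.15 with Prkaca and 0.18 with Prkar2a (-0.002 and 0.03 without it). Outside the family, among 10207 genes with at least 5 TPM on average, the patterns most like Pkia belonged to Ttc13 (r = 0.91), Uhrf1 (0.90) and Haspin (0.895). Those most like Pkig were Snrpf (r = 0.97), Gtf2h5 (0.94) and Rwdd1 (0.94). Without C50 GFP-negative replicate 1 these 6 values were 0.905, 0.904, 0.908, 0.953, 0.910 and 0.922.

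A-kinase anchoring proteins place PKA near its substrates, and 35 of 37 listed genes were in the table. With dDAVP, 4 of 24 tested were called, 1 higher and 3 lower, against 8.88% of all genes. Akap12 (gravin, a scaffold at the plasma membrane) rose from 239 ± 20 to 349 ± 52.8 TPM (SD, n = 3 each; 0.54; limma adjusted p = 0.0362). Akap8, a nuclear anchoring protein, fell by 0.50 (limma adjusted p = 0.0208), Msn, the membrane-actin linker moesin, by 0.41 (0.0438), and Cbfa2t3, a transcriptional corepressor, by 1.08 (0.0337). Each of these 4 calls was lost in 8 to 14 of the 18 or 19 alternatives, among which the libraries with fewer genes detected allowed no test. The Msn change was -0.235 under median-ratio scaling and -0.143 after length correction (limma adjusted p = 0.139 and 0.279). The median change of the list was -0.24, beside -0.16 over all genes tested.

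Between GFP fractions, 9 of 23 tested anchoring genes were called (GFP-positive cells had 3 of them at higher and 6 at lower levels), where 35.3% of all genes were called. Akap12 rose from 293 ± 82.7 to 467 ± 105 TPM (SD, n = 8 each; 0.69; limma adjusted p = 0.000878). Also higher were Lrba (0.55; limma adjusted p = 0.00299), a vesicle-trafficking protein, and Ezr (0.39; 0.0204), the membrane-actin linker ezrin. The related linker Msn fell from 151 ± 39 to 44.6 ± 15.3 TPM (SD, n = 8 each; -1.75; limma adjusted p = 4.81e-07) and was called in 34 of 34 alternatives. The remaining 5 lower genes were Wasf1 (-1.17), an actin regulator, Akap7 (-0.48), which has a splice form known from aquaporin-2 vesicles, Gskip (-0.36), Mycbp (-0.36) and the mitochondrial Chchd3 (-0.17), with limma adjusted p from 0.000679 to 0.0316. Mycbp lost its call in 16 of 34 alternatives, Chchd3 in 9, Akap7 in 8, Ezr in 5 and Lrba in 2. The Chchd3 change was -0.086 under median-ratio scaling, -0.069 under quantile normalization and -0.037 after length correction. Akap12, Wasf1 and Gskip lost theirs only with the libraries that had fewer genes detected (limma adjusted p = 0.0781, 0.315 and 0.181). The list's median change was 0.08, beside -0.06 over all genes tested, but it was uneven between lines. Line C50, whose GFP-negative fraction includes the library that stood apart, had a list median of 0.454. The other lines had 0.118 (C1), -0.067 (C11) and -0.182 (C43). The part of that library in the list median was not tested.

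Of 19 other cAMP effectors and PKA partners, 14 were tested. With dDAVP limma called 0 of them, against 8.88% of all genes, and 4 had an unadjusted p under 0.05. Between fractions 6 (42.9%) were called, against 35.3% of all genes. Ppp1r1b (DARPP-32, which inhibits protein phosphatase 1 once PKA has phosphorylated it) rose from 5.00 ± 3.69 to 10.4 ± 6.08 TPM (SD, n = 8 each; 0.95; limma adjusted p = 9.06e-05). Rapgef3 (Epac1, a cAMP-activated exchange factor that acts apart from PKA) rose from 57.4 ± 17.1 to 106 ± 52.2 TPM (SD, n = 8 each; 0.78; limma adjusted p = 0.00603). Its rise was uneven, with means from 43.3 to 47.9 TPM in C1, 71.7 to 107 in C11, 54.6 to 89.9 in C43 and 60.0 to 179 in C50. The C50 GFP-negative mean includes the library that stood apart. Ppp3ca, a catalytic subunit of calcineurin, rose by 0.34 (limma adjusted p = 0.0136), while its relative Ppp3cb fell by 0.38 (0.0495), a call lost in 24 of 34 alternatives. Ppp2r5d, a regulatory subunit of protein phosphatase 2A, fell by 0.35 (limma adjusted p = 0.0199), and Ppp1ca, a catalytic subunit of protein phosphatase 1, by 0.20 (0.0065). The Ppp1ca call was lost in 6 of 34 alternatives, among them median-ratio scaling (-0.12; limma adjusted p = 0.333) and length correction (-0.09; 0.255). Ppp3ca and Ppp2r5d each lost theirs in 5, with Ppp3ca at 0.18 without line C50 (limma adjusted p = 0.0681), Rapgef3 in 2 and Ppp1r1b in 1. For Rapgef3 these were line and fraction means as replicates, at 0.75 (limma adjusted p = 0.0531), and the libraries with fewer genes detected, at 0.94. The median change of this list was 0.10, beside -0.06 over all genes tested. Taken line by line, it was above 0 only for C50 (0.442), and lay at -0.034 (C1), -0.105 (C11) and -0.194 (C43). The part of the C50 library that stood apart was again not tested.

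**Figure D5:**
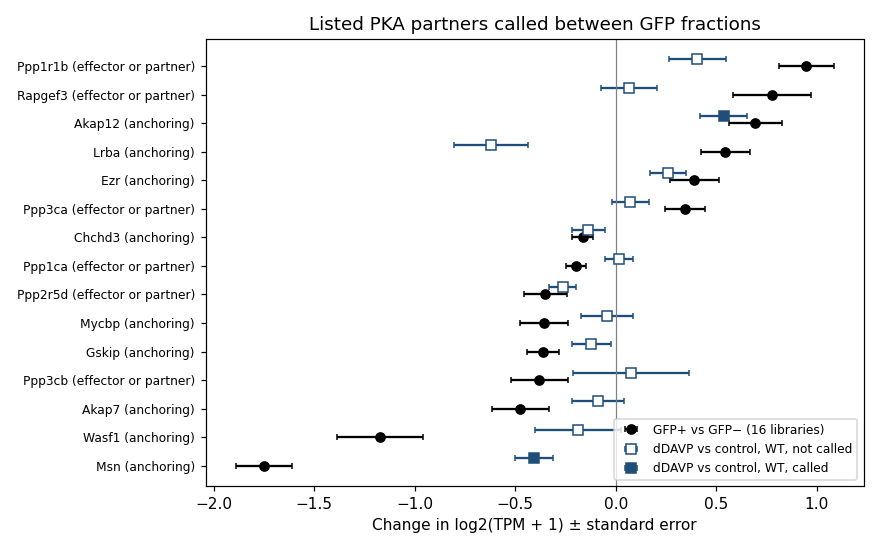
Change in log2(TPM + 1) with its standard error (horizontal axis) for the 15 listed anchoring genes and other partners that were called between GFP fractions over 16 libraries (circles), with their dDAVP change over 6 WT libraries (squares, filled where called). Msn lies lowest at -1.75 and Ppp1r1b highest at 0.95, and Akap12 and Msn are the 2 genes called in both comparisons.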

How the data were processed

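RNA of 22 libraries was analysed from the TPM that the authors deposited for 55415 table lines. Per the labels' protocols, cDNA was made with SMART-Seq HT from total RNA, and Nextera XT was used for the paired-end libraries. STAR and RSEM are named in the submitters' processing notes; versions, genome build and annotation are not given in the sources used here. How deeply each library was sequenced is unknown, since TPM hold no read totals, and 16 table columns of group means, ratios and maxima were not used. Lines sharing a symbol were summed, which left 54514 entries, and groups came from the sample labels.

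Changes are differences of log2(TPM + 1), tested two-sided with limma 3.58.1 in R 4.3.3 with trend moderation over genes with a mean of at least 1 TPM, and p-values were adjusted by Benjamini-Hochberg over all of them with a threshold of 0.05. The dDAVP fit used 6 libraries. The GFP fit used 16 with line as covariate, and fits per line, interaction and line F-tests used the same 16. The scripts were tested on simulated data. The members and gene lists were chosen with earlier results of these data known. All members, called genes of both lists, Aqp2, GFP and, for the 2 members with the widest span, the 3 most correlated genes are named. Alternatives covered the pseudocount, filters, scaling, moderation, library sets, the replicate block and leaving out libraries or lines. The correction for transcript length (GENCODE vM21 lengths) was chosen after seeing the data.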

Additional observations from a re-analysis of the deposited data

How the results depend on the processing

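Replicate numbers were checked for pairing: deviations of same-numbered libraries correlated at -0.208, -0.0254 and -0.109 in WT cells and at 0.0151 to 0.203 in the lines, so the numbers were not taken to pair samples. Such weak correlations cannot exclude pairing, and fits with a replicate block are therefore given as well. With a replicate block the dDAVP calls were 0 members and 122 of all genes (main 1 and 1198), the interaction 11 of all genes (main 114), and the C11 and C43 members called 0 each. For dDAVP, 0 members were called with median-ratio scaling, all genes of any TPM above 0, quantile normalization, no trend, all 22 libraries and the libraries with more genes detected, and all genes called were 442 (any TPM above 0), 757 (median-ratio), 691 (no trend), 789 (all 22), 2694 (covariate for genes detected) and 101 (more genes detected). For GFP, 1 member was called under any TPM above 0, without line C1, C11 or C43, and after length correction, and 0 with fewer genes detected, while 3 were called without line C50 (Prkacb joined at -0.389; limma adjusted p = 0.0286) and with more genes detected (Prkar2a joined at -0.334; 0.0441); all genes called were 2642 with line and fraction means as replicates and 250 with fewer genes detected. Between lines, 4 members were called under median-ratio scaling, the covariate and length correction (3839, 3725 and 4656 of all genes, main 3669), and 5 under quantile normalization and all 22 libraries (4384 and 5258). Within C11, 0 members were called under any TPM above 0, median-ratio, quantile and no trend, and 2 with all 22 libraries; within C43, 0 under the first 4 of these and length correction. The interaction gave 234 of all genes under quantile normalization, 286 (1 member) with all 22 libraries and 270 (1 member) after length correction.

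Leaving out 1 library gave 314 to 2038 genes and 0 to 3 members called for dDAVP, 4170 to 6043 genes and 1 to 4 members for GFP, 2744 to 5889 genes and 1 to 4 members between lines, 42 to 5038 genes and 0 to 4 members for the interaction (the highest without C50 GFP-negative replicate 2), and within lines 0 to 1 (C11), 0 to 2 (C43) and 1 to 6 (C50) members, beside 318 to 2331, 858 to 3891 and 1793 to 6820 genes. With 1 library left out, signs turned for the C50 subunit changes given above, and the changes that turned sign also include spans of -0.026 to 0.102 for Prkar2b (dDAVP), -0.101 to 0.066 for Prkaca and -0.033 to 0.032 for Prkar1a (GFP), -0.251 to 0.111 for Prkacb and -0.175 to 0.219 for Prkar2a (C1), and -0.266 to 0.91 for Prkacb, -0.297 to 1.015 for Prkar2a and -1.277 to 0.223 for Pkia (C50, without GFP-negative replicate 1 and 2 in turn). Other changes that turned sign were, for dDAVP, Pkig at 0.035 (median-ratio) and Prkar2b at -0.006 (covariate); for GFP, Prkaca at 0.074 (median-ratio), 0.068 (quantile), 0.013 (without C1), 0.017 (without C43), 0.099 (fewer genes detected) and 0.083 (length), Prkar1a at -0.018 (without C1), -0.026 (without C50) and -0.08 (more genes detected), Prkar2a at 0.028 (without C43), 0.118 (fewer) and 0.044 (length), and Ppp3cb, called at -0.38, at 0.002 (fewer); within C1, Prkacb at 0.005 (median-ratio) and 0.02 (quantile) and Prkar2a at -0.088 (covariate); within C50, Prkacb at -0.05 (length), from 0.32. The cause of these shifts was not tested. With 2 or 3 libraries a group and unknown depth, small changes of the low members Prkar1b and Pkib were not measurable.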
